A study of Mus musculus with 59 samples.

Results

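The genes described here encode collagens and other proteins of the extracellular matrix, together with the enzymes that process, crosslink and degrade them. They were taken from a list of 37 genes, chosen with earlier results of these data known. Each gene was read from its brightest probe set among those assigned to 1 gene. Of these, 31 were measured, out of 11807 genes on the array. Col1a2, Col12a1, Fbn1, Thbs1, Fbln2 and Nid2 had no such probe set and were not analysed here.

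Total RNA of 59 mouse pluripotent lines was hybridised to Affymetrix arrays, 1 array per line and no repeat arrays. The controls were 4 clones of targeted KH2 embryonic stem cells (ESC-1 to ESC-4), which carry an inducible cassette with Myc, Klf4, Oct4 and Sox2. The 48 clones of induced pluripotent stem cells (iPSC) came from animals that had been made with such ESC, so ESC and iPSC share the cassette. They were derived from MEFs of chimera 1 (6 clones), from HSCs, GMPs and granulocytes of mouse 1 (11 clones in all), mouse 2 (11) and chimera 2 (9), from cells labelled PF of mouse 1 (2) and mouse 2 (3), and from cells labelled TTF of chimera 2 (6). HSC, GMP and granulocyte origins are called blood origins below, and PF and TTF origins are grouped as fibroblast origins. Adeno-2 is 1 clone from fetal liver, and 6 further lines (NT-4 to NT-9) were ESC from blastocysts cloned from Adeno-2, iPSC-7 or iPSC-15. Every line grew on irradiated MEFs and was preplated for 45 minutes to take MEFs away before RNA was made, so each array can hold RNA of feeder fibroblasts. The labels name no age and no array batch. Clones labelled with the same animal share it, so p-values below measure the spread between clones, not between animals.

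Fibrillar collagens are the cables of connective tissue, and matricellular proteins and small proteoglycans regulate how those cables assemble and how cells read them. Lysyl oxidases crosslink collagen and elastin, matrix metalloproteinases degrade the matrix, and TIMPs inhibit those proteinases. Fibroblasts, including the MEFs used as feeders, are a main source of these proteins.

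Because most of the 31 matrix genes rose and fell together from clone to clone, each of the 31 was set against a common measure, called here the feeder-like factor. The factor of an array is the mean, over 32 fibroblast and stromal genes that are not among the 31, of each gene's log2 distance from its mean over the 52 ESC and iPSC arrays. Its genes include Prrx1, Twist2, Thy1, Cav1, S100a6 and Inhba. The name is a label: how much feeder RNA an array held was not measured.

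Promoter sequences were at hand for 20 of the 31 genes, and 6 are shown because these genes lie at both ends of the response to the factor. Tnc, Postn, Thbs2 and Timp3 had the steepest slopes of the 31, and Nid1 and Pcolce were among the flattest. Each is the 150 bases before an annotated start, read 5′ to 3′ on the gene's strand, from RefSeq with assembly GRCm38.p6. Tnc and Postn have 2 entries each, and the one shown is the entry that holds TATA; the other entry of each has none in the window. Capitals mark TATA between positions -40 and -16 on the gene's strand, and CCAAT or GGGCGG on either strand.
Tnc, chr4:64046937-64047086, minus strand: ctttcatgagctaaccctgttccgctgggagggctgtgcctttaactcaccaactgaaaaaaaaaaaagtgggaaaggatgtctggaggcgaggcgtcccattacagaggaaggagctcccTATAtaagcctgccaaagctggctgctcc
Postn, chr3:54360957-54361106, plus strand: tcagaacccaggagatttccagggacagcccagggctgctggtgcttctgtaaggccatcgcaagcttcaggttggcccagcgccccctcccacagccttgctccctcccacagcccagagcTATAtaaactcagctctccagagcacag
Thbs2, chr17:14694263-14694412, minus strand: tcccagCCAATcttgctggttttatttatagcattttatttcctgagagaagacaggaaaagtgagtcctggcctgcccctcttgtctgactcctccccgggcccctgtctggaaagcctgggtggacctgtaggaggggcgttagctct
Timp3, chr10:86300262-86300411, plus strand: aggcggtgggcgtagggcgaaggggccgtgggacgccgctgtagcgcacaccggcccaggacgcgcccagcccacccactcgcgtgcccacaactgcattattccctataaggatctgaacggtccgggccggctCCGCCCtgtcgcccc
Nid1, chr13:13437452-13437601, plus strand: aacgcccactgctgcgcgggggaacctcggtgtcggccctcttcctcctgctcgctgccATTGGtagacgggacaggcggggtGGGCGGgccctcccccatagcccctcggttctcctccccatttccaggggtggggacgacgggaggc
Pcolce, chr5:137611405-137611554, minus strand: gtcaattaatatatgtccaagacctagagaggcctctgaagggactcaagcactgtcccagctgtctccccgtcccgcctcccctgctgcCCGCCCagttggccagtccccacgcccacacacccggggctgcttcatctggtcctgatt
Of the 20 genes, 3 held TATA in that window in at least 1 entry (Col3a1, Postn and Tnc), against 5.91% of all 32851 promoters in the table. All 3 were among the 13 genes with an entry and a slope of 1 or more on the factor, and none was among the 4 with an entry and a slope under 0.5. GGGCGG lay between positions -250 and -1, on either strand, in 14 of the 20 genes (32.7% of all promoters) and CCAAT in 7 (33.8%). Among the 13 genes with a slope of 1 or more, GGGCGG lay in 8 and CCAAT in 4. Among the 4 with a slope under 0.5, they lay in 4 and 3. With so few genes, and 13 of the 20 in the steep class, these splits and that of TATA are a description. TGANTCA, searched on both strands, lay in 1 gene (6.75%). The shares of all promoters count entries, whereas a gene with several entries was counted once if any held the match. Of the 26 entries of the 20 genes, 3 held TATA, 16 GGGCGG, 7 CCAAT and 1 TGANTCA. These are letter matches and do not show that a factor binds.

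The factor separated the groups as follows. It was lowest in ESC (mean -0.25 ± 0.45, SD, n = 4) and MEF-derived clones (-0.30 ± 0.31, n = 6) and in the blood-derived clones of mouse 2 (-0.25 ± 0.08, n = 11) and chimera 2 (-0.28 ± 0.07, n = 9). It was higher in blood-derived clones of mouse 1 (0.20 ± 0.25, n = 11), PF-derived clones of mouse 1 (0.43 ± 0.09, n = 2), TTF-derived clones (0.43 ± 0.20, n = 6) and PF-derived clones of mouse 2 (0.82 ± 0.18, n = 3). ESC-1 stood apart from the other ESC, at 0.37 against -0.70 to -0.32. The mean of the matrix genes followed the factor with r = 0.97 over the 52 arrays and 0.95 for deviations within groups. Both measures come from the same arrays, so this is a description. In bulk RNA, more cells of a type and more RNA per cell cannot be told apart. As for the cell types an array could hold, 15 of the 32 factor genes had a mean above 0 on the arrays' scale, with Fap low (mean -2.67) and Prrx1 at 1.25. Of 12 haematopoietic markers, Ptprc (mean -3.92) and Mpo (-3.21) were low in every clone, and the mean of the list ranged from -2.15 to -1.49 over the 52 arrays. Other genes of this list were not low or moved with the groups: Cd68 had a mean of 0.64 and Laptm5 of 0.16, Cd53 was higher in fibroblast-derived than in blood-derived clones by 1.42 (SE 0.17) and Lcp1 by 0.72 (SE 0.11), and Lyz2 ranged from -3.92 to 1.04 with a slope of 2.14 on the factor described above. Between fibroblast-derived and blood-derived clones, 3 of the 12 were higher and 2 lower, with 20.3% and 26.7% of all genes called higher and lower. These counts are therefore not particular to this list. The mean of 9 pluripotency markers was 4.14 in PF-derived clones of mouse 2, 4.38 in TTF-derived clones and 4.52 in PF-derived clones of mouse 1. It was 4.57 to 4.69 in the 3 sets of blood-derived clones, with 4.59 in those of mouse 1. The part of these markers in the differences below was not tested.

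**Figure D1:**
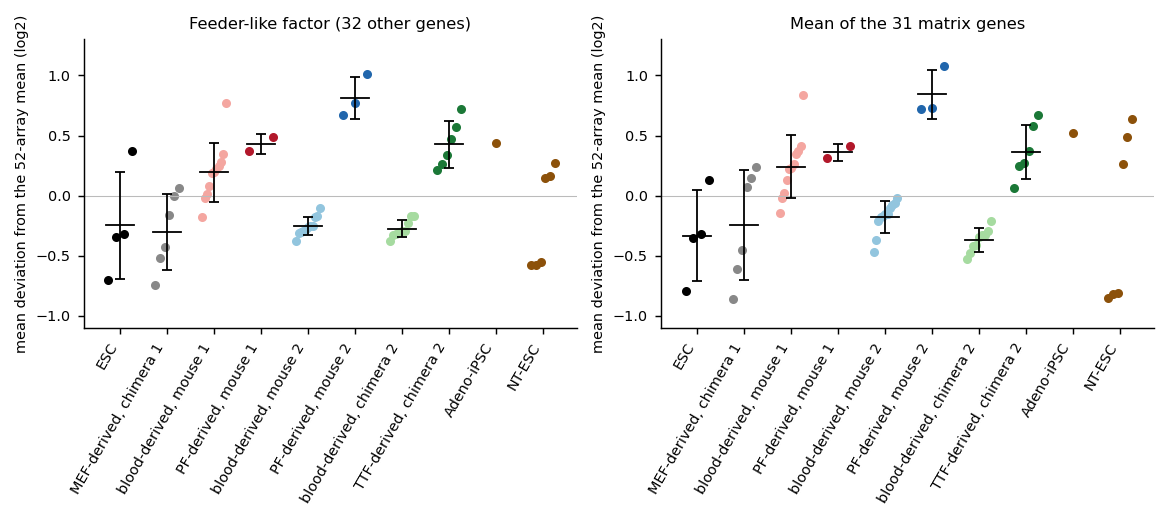
The feeder-like factor (left) and the mean of the 31 matrix genes (right) in each array, as log2 distance from the mean of the 52 ESC and iPSC arrays; each point is 1 array, and lines and bars give the mean and SD of groups with more than 1 array, except the NT-ESC, which come from 3 donors. ESC-1 is the single ESC above 0 in both panels, and PF-derived clones of mouse 2 are highest.

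Within groups, 27 of the 31 matrix genes rose with the factor and 0 fell, in a limma fit with 14 group means and the factor as terms (adjusted p under 0.05). Of all genes tested, 7.87% rose and 6.72% fell. The matrix genes and the factor's genes were both chosen with earlier results of these data known, and come from the same arrays. A shared rise was therefore likely from the start, and these counts are a description. The median slope was 1.20 log2 units per unit of the factor, against -0.015 over all genes. A slope of 1 or more was found for 18 matrix genes, a slope from 0.5 to 1 for 7 and a slope under 0.5 for 6. The slopes thus differed widely within the set.

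The steepest were matricellular proteins, which modulate adhesion rather than bear load. Tnc (tenascin C) had a slope of 2.15 (SE 0.16), Postn (periostin) 2.06 (SE 0.15) and Thbs2 (thrombospondin 2) 2.03 (SE 0.12). Fstl1 (0.84, SE 0.07) and Sparc (0.55, SE 0.08), secreted proteins of the same broad class, had flatter slopes. Tnc's slope varied by group: 2.67 among ESC and MEF-derived arrays and 1.55 among blood-derived clones of mouse 1. It was 2.14 among blood-derived clones of mouse 2 and chimera 2, and 0.98 among fibroblast-derived clones.

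Thbs2 had the largest share of its variation accounted for by the factor. In ESC-1 to ESC-4 its level was 1.13, 0.13, -0.07 and -1.04 on the deposited log2 scale, and the factor in the same arrays was 0.37, -0.32, -0.34 and -0.70. Its lowest, median and highest levels were 0.18, 0.84 and 1.67 in blood-derived clones of mouse 1, -0.30, -0.07 and 0.38 in those of mouse 2, and -0.26, 0.22 and 0.43 in those of chimera 2. In fibroblast-derived clones it was 1.58 and 1.46 (PF, mouse 1), 2.34, 1.60 and 1.68 (PF, mouse 2), and 1.04 to 2.22 with a median of 1.34 (TTF). Fibroblast-derived clones of mouse 2 and chimera 2 did not overlap their blood-derived counterparts, whereas in mouse 1 the blood-derived iPSC-7 (1.67) was above both PF-derived clones. The share was 93.7% over the 52 arrays, and no array lay 0.5 log2 units or more from its line.

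Of the small leucine-rich proteoglycans, which bind collagen fibrils, Dcn (decorin) had a slope of 1.85 (SE 0.18), Bgn (biglycan) 1.24 (SE 0.09) and Lum (lumican) 0.80 (SE 0.13). The fibrillar collagens lay close together: Col5a2 1.73 (SE 0.15), Col1a1 1.43 (SE 0.13), Col5a1 1.40 (SE 0.11) and Col3a1 1.38 (SE 0.17). The chains of type VI collagen, which forms beaded filaments, had slopes of 1.51 for Col6a3 (SE 0.14), 1.42 for Col6a1 (SE 0.13) and 1.20 for Col6a2 (SE 0.12). Col5a1 and Col5a2, chains of type V collagen, which nucleates fibrils of type I, had the highest correlation of any pair of matrix genes (r = 0.97 for deviations within groups, 52 arrays). The median over all 465 pairs was 0.68, and the lowest was -0.37, between Mfap2 and Pcolce.

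The TIMPs differed. Timp3, a TIMP that is held in the matrix, had a slope of 2.01 (SE 0.22), Timp2 1.72 (SE 0.12) and Timp1 1.04 (SE 0.11), while Mmp2, a gelatinase that TIMP2 binds, had 0.69 (SE 0.14). Timp3's slope was not alike in all groups. It was 2.68 among the 10 ESC and MEF-derived arrays, which hold 57.9% of the variation of the factor within groups, 1.27 among blood-derived clones of mouse 1, 2.66 among the 20 blood-derived clones of mouse 2 and chimera 2, which hold 5.2%, and 0.21 among the 11 fibroblast-derived clones. Its levels show this: 0.48 to 2.90 in ESC and -0.04 to 2.69 in MEF-derived clones, but 2.55 to 3.16 in TTF-derived clones over a factor of 0.21 to 0.72.

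Among enzymes that crosslink collagen and elastin, Lox had a slope of 1.35 (SE 0.14), Loxl1 1.07 (SE 0.10) and Loxl2 0.50 (SE 0.10). Serpinh1, the collagen chaperone of the endoplasmic reticulum, had 0.90 (SE 0.11). Genes of elastic fibres and microfibrils were split: Fbln5 (fibulin 5), which links elastin to cells, had 1.53 (SE 0.14) and the microfibril gene Mfap5 0.84 (SE 0.13). Eln and Mfap2, given below, had no called slope. Fn1 (fibronectin) had 0.38 (SE 0.09).

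The 4 genes with no called slope were Eln (elastin, -0.12, SE 0.14), Pcolce, an enhancer of procollagen cleavage (-0.01, SE 0.10), Col18a1, a basement membrane collagen (0.12, SE 0.09), and Mfap2, a microfibril gene (0.14, SE 0.14). Nid1 (nidogen 1), a basement membrane linker, had a called slope of 0.34 (SE 0.11). Its levels were 3.44, 3.57, 3.49 and 3.42 in the 4 ESC clones, 3.25 to 3.87 in MEF-derived clones and 3.00 to 3.83 in blood-derived clones of mouse 1, so these groups overlapped. In blood-derived clones of chimera 2 it was 2.92 to 3.38, below all 4 ESC. Col18a1 ranged from 2.64 to 2.99 in ESC and from 2.84 to 3.16 in blood-derived clones of chimera 2. Eln was -1.40, -1.42, -1.40 and -0.84 in ESC and never rose above -0.71 in any of the 52 arrays. Leaving out any 1 of the 52 arrays gave 26 or 27 called slopes.

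**Figure D2:**
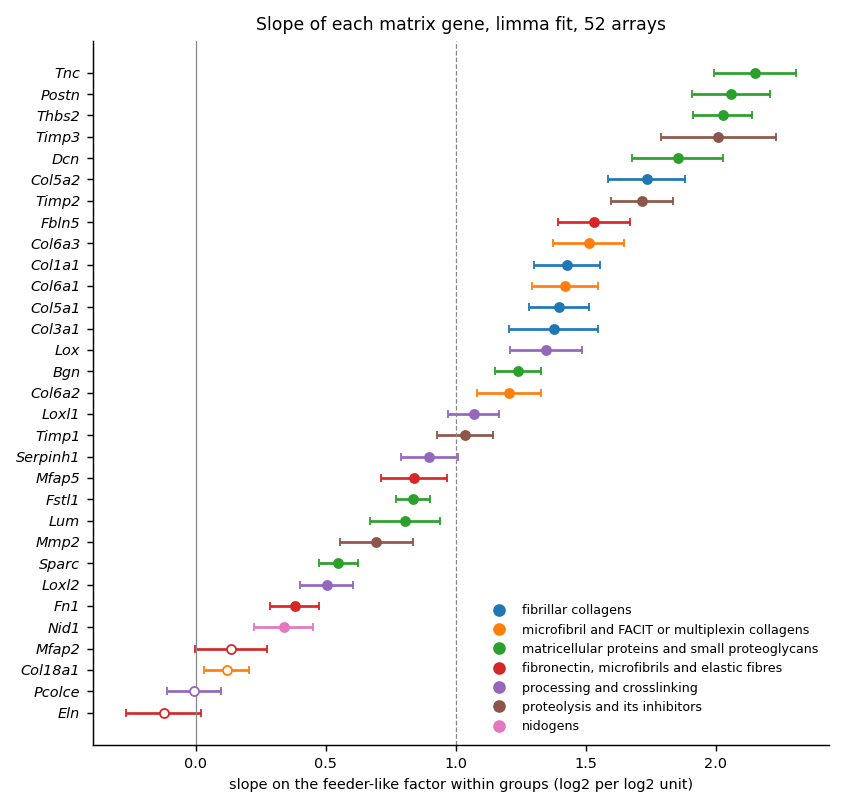
Slope of each of the 31 matrix genes on the feeder-like factor within groups (log2 per log2 unit, 52 arrays, limma), with bars for 1 SE and colours for role; filled points passed an adjusted p under 0.05, open points did not. Slopes run from -0.12 (Eln) to 2.15 (Tnc), and the dashed line marks a slope of 1.

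Each gene was then compared, clone by clone, with its own line on the factor. Of the 1612 values (31 genes in 52 arrays), 58 lay more than 0.5 log2 units above the line and 81 more than 0.5 below it. A single value lay more than 1 above, Dcn in iPSC-19 (PF, mouse 1) at 1.13, and a single value more than 1 below, Tnc in iPSC-6 (MEF) at -1.09. In 12 arrays no matrix gene was past 0.5, and 9 genes (Col18a1, Bgn, Sparc, Fstl1, Loxl1, Thbs2, Serpinh1, Nid1 and Eln) were past it in no array. The distances collected in a few genes: Dcn was past 0.5 in 11 arrays above and 7 below, Col5a2 in 10 and 7, Lox in 6 and 9, Timp3 in 4 and 11, and Tnc in 3 and 9. These lines include the group differences, so the distances are a description.

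**Figure D3:**
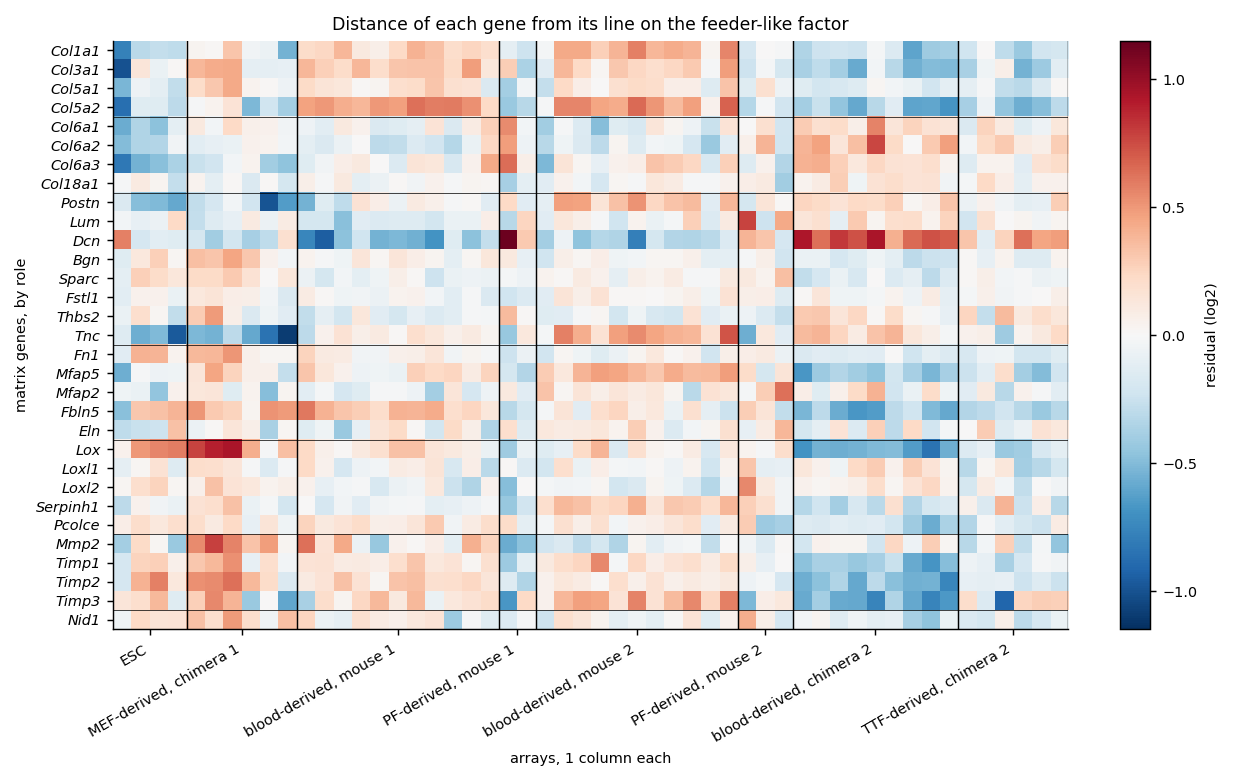
Distance of each matrix gene (rows, by role) from its line on the feeder-like factor in each of the 52 ESC and iPSC arrays (columns, by group), in log2 units; red is above and blue below the line. Dcn is red and Lox, Timp1, Timp2, Timp3 and Fbln5 are blue in the 9 blood-derived clones of chimera 2.

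Blood-derived clones of chimera 2 held the clearest pattern. Dcn was the gene farthest above its line in all 9 of them, by 0.41 to 0.94, and it lay below its line in the blood-derived clones of mouse 1 (mean distance -0.51) and mouse 2 (-0.34). The 7 genes farthest below their lines in the chimera 2 clones, by their mean distance, were Lox (mean distance -0.60), Timp3 (-0.58), Timp2 (-0.51), Fbln5 (-0.48), Col5a2 (-0.45), Timp1 (-0.45) and Mfap5 (-0.42), followed by Col3a1 (-0.39) and Col1a1 (-0.30).

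The blood-derived clones of chimera 2 and mouse 2 had nearly the same factor (-0.28 ± 0.07 and -0.25 ± 0.08) and the same 3 cell types of origin, so they were compared directly. This comparison was chosen after these values were seen. Dcn's lowest, median and highest levels were -0.47, -0.29 and 0.04 in chimera 2 and -1.81, -1.14 and -0.95 in mouse 2, so the clones did not overlap. The difference was 1.01 (SE 0.21, limma adjusted p = 0.000159). Timp3 went the other way, at 0.61, 0.83 and 1.32 in chimera 2 and 1.32, 2.00 and 2.28 in mouse 2, so the ranges met at their ends. The difference was -1.003 (SE 0.24, limma adjusted p = 0.000848). Lox was 1.61, 1.72 and 1.95 in chimera 2 against 2.08, 2.45 and 2.94 in mouse 2, again without overlap, a difference of -0.67 (SE 0.15, limma adjusted p = 0.000711).

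In all, 2 matrix genes were higher in chimera 2 (Dcn and Col6a2, the latter by 0.48, SE 0.14) and 12 were lower, with 15.7% and 16.8% of all genes called higher and lower (32.6% in all). Lower were 3 fibrillar collagen genes (Col5a2 by -0.92, Col1a1 by -0.68 and Col3a1 by -0.64), Timp1 (-0.66), Timp2 (-0.64), Mfap5 (-0.81), Fbln5 (-0.55), Serpinh1 (-0.52), Pcolce (-0.32) and Sparc (-0.21), besides Timp3 and Lox. Col1a1 was 2.26, 2.66 and 2.92 in chimera 2 and 2.78, 3.42 and 3.51 in mouse 2, with a small overlap. Postn (-0.12, SE 0.22), Tnc (-0.22, SE 0.23), Thbs2 (0.16, SE 0.21) and Bgn (-0.16, SE 0.13), which also follow the factor closely, were not called. With the factor as a covariate 6 were higher and 13 lower (16.8% and 18.0% of all genes, 34.9% in all), and Dcn differed by 1.06 (SE 0.11). Mfap5 was -0.81, -0.60 and -0.32 in chimera 2 and -0.06, 0.24 and 0.41 in mouse 2, and Timp2 was 0.96, 1.38 and 1.56 against 1.77, 2.02 and 2.18. Neither gene overlapped between the animals. The share of all genes without overlap between these clones was not counted, so the lack of overlap here and for Dcn and Lox is a description. Of the 32 factor genes, 2 were higher and 2 lower in chimera 2 without the covariate. Animal and any culture or array batch that went with it cannot be told apart.

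**Figure D4:**
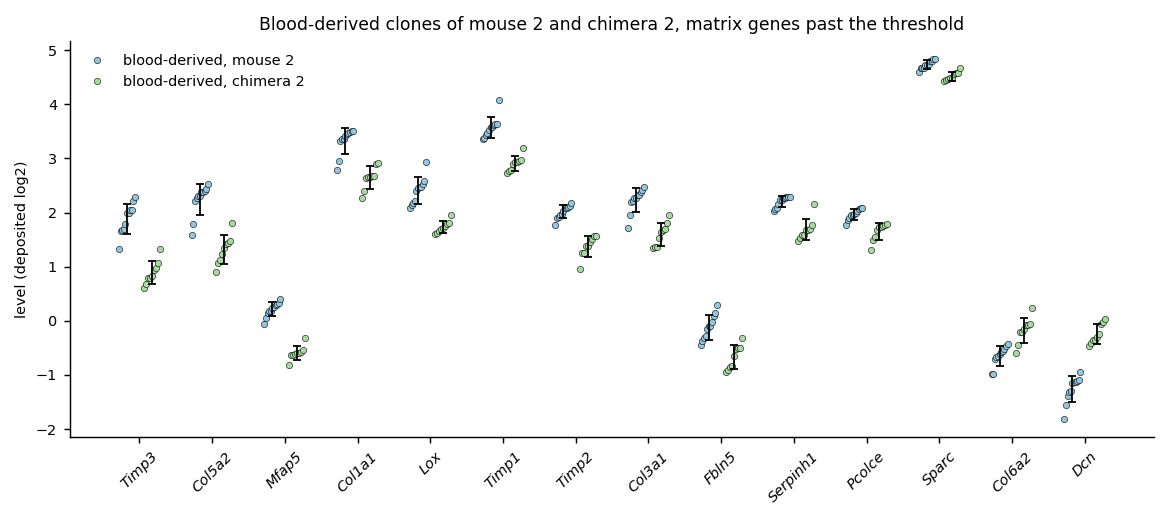
Levels (deposited log2 values) of the 14 matrix genes past the threshold between blood-derived clones of mouse 2 (11 clones, blue) and chimera 2 (9 clones, green); points are clones and bars the mean and SD. Dcn and Col6a2 are higher in chimera 2 and the other 12 are lower.

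Dcn, Timp3 and Lox against the factor show how these animals part. Over the factor range of the chimera 2 blood-derived clones (-0.38 to -0.17), Dcn was higher and Lox lower in each of them than in every other ESC or iPSC array in that range. At higher factor values the TTF-derived clones of the same animal approached the other fibroblast-derived clones: Dcn was 0.55 to 1.22 in TTF-derived clones and 0.82 to 1.92 in PF-derived clones.

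**Figure D5:**
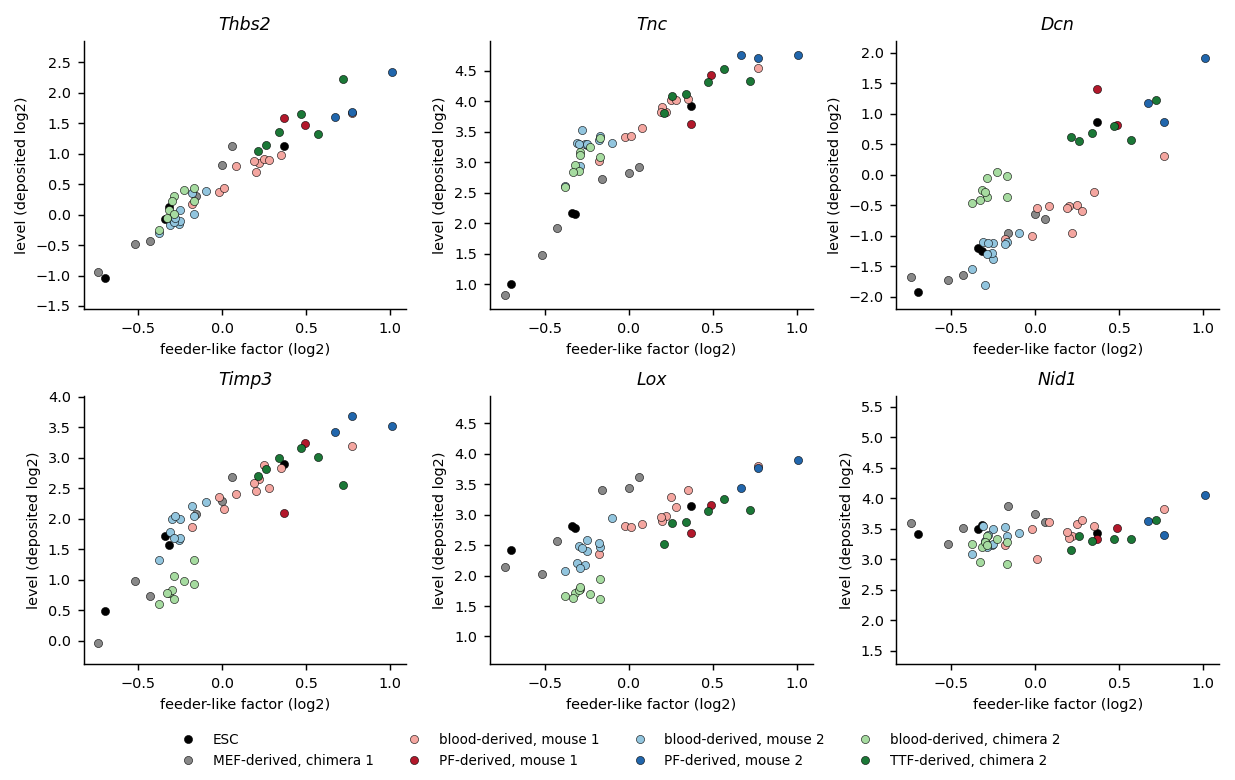
Levels of 6 matrix genes (deposited log2 values, y axes of equal span) against the feeder-like factor (log2) in the 52 ESC and iPSC arrays, coloured by group. Thbs2 follows 1 line, Dcn, Timp3 and Lox show the blood-derived clones of chimera 2 (light green) apart, Tnc is low in MEF-derived clones and in 3 of the ESC, and Nid1 is nearly flat.

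Between fibroblast and blood origin, averaged over the 3 animals with equal weight, 26 of the 31 matrix genes were higher and 2 lower in fibroblast-derived clones (20.3% and 26.7% of all genes, 47.0% in all, limma). The median difference was 0.67, against -0.005 over all genes. Dcn rose most (1.75, SE 0.18), followed by Thbs2 (1.31, SE 0.17), Timp3 (1.26, SE 0.20), Postn (1.17, SE 0.18) and the type VI collagen genes (1.10 each, SE 0.12 to 0.14). Col18a1 fell by 0.18 and Pcolce fell by 0.16, and Mmp2 (-0.11, SE 0.09), Fn1 (0.08, SE 0.06) and Eln (0.11, SE 0.08) were not called. The factor moved in the same direction, and 27 of its 32 genes were higher. Without mouse 2 the count of matrix genes was 18 (17 higher, 1 lower).

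The 3 animals differed in this comparison. In mouse 2, 26 matrix genes were higher and 1 lower (15.6% and 21.0% of all genes), with a median of 1.10, and in 24 of the 31 every PF-derived clone was above every blood-derived clone (8.22% of all genes). In chimera 2, 22 were higher and 0 lower (13.4% and 18.3%), with a median of 0.89, and 21 did not overlap (4.82%).

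In mouse 1, with 2 PF-derived clones, 1 matrix gene was higher and 1 lower (2.08% and 5.24%, 7.33% in all), and the median was 0.01. These were Dcn (1.69, SE 0.35) and Mmp2, which fell by 0.61 (SE 0.19). Dcn was 1.41 in iPSC-19 and 0.82 in iPSC-20 and at most 0.30 in the 11 blood-derived clones, while Mmp2 was -1.08 and -0.95 against -1.01 to 0.21. The median was near 0 in this animal while its blood-derived clones had a higher factor than those of the others, and 23 matrix genes were higher and 0 lower in them than in the other blood-derived clones (14.5% and 12.5% of all genes). The counts in mouse 1 were small and moved with single clones: 0 without iPSC-19, 4 without iPSC-34, and 1 without iPSC-14, iPSC-16 or iPSC-17. A moderated F test called a difference between animals for 17 of the 31 (11.5% of all genes, limma), 5 without iPSC-19, 11 without iPSC-20 and 11 with the factor as a covariate.

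With the factor as a covariate, most of the origin difference of the matrix genes was no longer called. The factor itself differed by origin, and its genes were chosen with earlier results of these data known. A lower count was therefore likely from the start, and the counts with the covariate are a description. Across the 3 animals, 1 gene was higher and 7 were lower in fibroblast-derived clones (3.27% and 7.16% of all genes, 10.4% in all), with a median of -0.14. Dcn was the higher one (0.49, SE 0.15, limma adjusted p = 0.0301). The lower ones were Mmp2 (-0.58, SE 0.12, limma adjusted p = 0.00169), Col5a2 (-0.51, SE 0.13), Tnc (-0.47, SE 0.14), Loxl1 (-0.34, SE 0.08), Mfap5 (-0.32, SE 0.11), Col18a1 (-0.26, SE 0.07) and Fstl1 (-0.17, SE 0.05). Averaged over the animals, Dcn was in excess of what its slope gives for the factor of these clones, and these 7 fell short. That holds for 1 slope per gene, and ESC and MEF-derived arrays held 57.9% of the factor's variation within groups. Slopes among fibroblast-derived clones and among those arrays were 0.98 and 2.67 for Tnc, 1.17 and 2.16 for Dcn, and 0.68 and 0.79 for Fstl1. They were 1.05 and 0.45 for Mmp2, 1.72 and 1.62 for Col5a2, and 1.63 and 0.86 for Loxl1. For Mfap5 they were 1.58 and 0.63, and for Col18a1 0.33 and 0.10. The animals differed for Dcn, by its mean distance from the line described above, which includes the group differences. This was 0.71 in PF-derived against -0.51 in blood-derived clones of mouse 1, and 0.17 against -0.34 in mouse 2. In chimera 2 it went the other way, at 0.34 in TTF-derived against 0.73 in blood-derived clones. Single arrays moved the count of matrix genes called with the covariate. It was 14 without ESC-1, 5 without ESC-4, iPSC-2, iPSC-7 or iPSC-47, 4 without iPSC-6 and 3 without iPSC-19.

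Among blood-derived clones, mouse 1 against the other animals with the same covariate gave 6 higher and 5 lower (8.82% and 7.64% of all genes), in place of 23 and 0. The factor also differed between these clones, so a lower count was likely here too. Fbln5 (0.59, SE 0.09), Col5a2 (0.46, SE 0.10), Col3a1 (0.38, SE 0.12), Timp2 (0.35, SE 0.08), Lox (0.33, SE 0.10) and Timp1 (0.24, SE 0.07) were higher. Dcn (-0.65, SE 0.12), Postn (-0.37, SE 0.10), Tnc (-0.34, SE 0.11), Loxl1 (-0.23, SE 0.07) and Fstl1 (-0.13, SE 0.04) were lower. This comparison and the one of chimera 2 with mouse 2 share clones.

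Against ESC, the 3 iPSC classes were each compared with the same 4 ESC arrays, so their values are not independent. MEF-derived clones differed in 1 matrix gene, Mmp2, which was higher by 0.59 (SE 0.16; 1.63% and 0.974% of all genes higher and lower, 2.61% in all, limma). Mmp2 was -0.04, 0.23, -0.04, -0.32, -0.19 and -0.68 in iPSC-1 to iPSC-6 and -0.89, -0.42, -0.62 and -1.14 in ESC-1 to ESC-4. Of the MEF-derived clones only iPSC-6 lay below the highest ESC. This call was lost without ESC-1, ESC-4, iPSC-1, iPSC-2 or iPSC-3, leaving 0. The clone numbers do not pair ESC with MEF-derived clones, and with the number as replicate block on the 10 arrays 0 matrix genes were called.

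Blood-derived clones were higher than ESC in 7 matrix genes and lower in 0 (15.1% and 11.5% of all genes); with the animal as a random block at the estimated correlation only Col6a3 was called (limma adjusted p = 0.0473), and Tnc had an adjusted p = 0.0771. The 7 were Tnc (1.03, SE 0.27), Col6a3 (0.88, SE 0.20), Postn (0.82, SE 0.26), Col5a2 (0.74, SE 0.22), Col1a1 (0.69, SE 0.18), Col6a1 (0.62, SE 0.18) and Col6a2 (0.51, SE 0.16). The spread of ESC is wide: Tnc was 3.92 in ESC-1 and 2.15, 2.17 and 1.00 in ESC-2, ESC-3 and ESC-4, and Col6a3 was -0.53, -1.41, -1.38 and -1.86. The count was 11 without ESC-1, 4 without ESC-3 and 2 without ESC-4. Fibroblast-derived clones were higher in 23 and lower in 1, Pcolce (20.3% and 21.4%, 41.6% in all). With the animal as a random block, Pcolce (limma adjusted p = 0.0521) and Timp2 (0.0508) were among those not called, while others such as Col6a3 (1.35e-05) were.

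With the factor as a covariate, blood-derived clones were higher than ESC in 8 matrix genes and lower in 4 (16.0% and 12.2% of all genes). Higher were Tnc (0.74, SE 0.12), Postn (0.55, SE 0.11) and 6 collagen genes from Col6a3 (0.68, SE 0.10) to Col5a1 (0.26, SE 0.09). Lower were Lox (-0.59, SE 0.10), Timp2 (-0.32, SE 0.09), Fn1 (-0.24, SE 0.07) and Sparc (-0.19, SE 0.06). Lox was 3.14, 2.78, 2.82 and 2.42 in the 4 ESC, and its lowest, median and highest levels were 1.61, 1.72 and 1.95 in blood-derived clones of chimera 2. Fibroblast-derived clones gave 3 higher and 6 lower in the same fit (9.42% and 11.2%), the 3 being the type VI collagen genes and the 6 being Lox, Mmp2, Timp2, Fn1, Loxl1 and Pcolce, and the count was 20 without ESC-1. MEF-derived clones gave 3 higher and 0 lower (2.17% and 1.31%, 3.48% in all): Mmp2 (0.63, SE 0.12), Col6a1 (0.43, SE 0.11) and Col5a1 (0.41, SE 0.10). That count was 0 without ESC-1, 1 without iPSC-3 and 5 without iPSC-6.

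Relative to its line, Tnc was low in both ESC (mean distance -0.55) and MEF-derived clones (-0.65), and Lox was high in both (0.42 and 0.56). Tnc was 2.82, 2.92, 2.73, 1.92, 1.48 and 0.82 in iPSC-1 to iPSC-6, whereas it ranged from 2.60 to 3.52 in the 11 blood-derived clones of mouse 2 and from 3.80 to 4.53 in the TTF-derived clones. Only ESC-1 among the ESC reached the range of the TTF-derived clones.

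Other matrix lists were counted in the same fits, where 20.3% of all genes were higher and 26.7% lower in fibroblast-derived clones and 7.87% had a called positive slope. Of 19 proteases and inhibitors outside the 31 genes, 14 were higher and 2 lower in fibroblast-derived clones. Plau (urokinase) was higher by 1.37 (SE 0.18) and Mmp10 by 1.38 (SE 0.14). A called positive slope on the factor was found for 14 of the 19, with 2.05 for Plau and 1.18 for Mmp10. Of 28 further matrix proteins 13 were higher and 2 lower, with Ccn4 at 1.22 (SE 0.19). Of 18 other collagens 8 were higher and 1 lower, with Col8a1 at 0.60 (SE 0.09). Of 16 enzymes that modify collagen 8 were higher and 5 lower, with Loxl3 at 0.49 (SE 0.14) and Plod2, a lysyl hydroxylase, at -0.50 (SE 0.06). Of 15 basement membrane genes 4 were higher and 2 lower, with Col4a2 at 0.77 (SE 0.14) and Lama3 at -0.50 (SE 0.11). Of 19 matrix receptors 7 were higher and 1 lower, with Cd44 at 1.07 (SE 0.16), and of 11 TGF-beta pathway genes 3 were higher and 3 lower, with Tgfbr2 at 0.83 (SE 0.13). The shares of the basement membrane and TGF-beta lists called higher were near that of all genes. Outside the 31 genes, the deviations most like the mean of the matrix genes within groups (the same 52 arrays) were those of Serpinf1 (r = 0.96), Anxa1, S100a6 and Lbh (0.94 each) and Cav1 (0.93). Anxa1, S100a6 and Cav1 are themselves genes of the factor.

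In the NT-ESC, the matrix genes went different ways by donor. In NT-4, NT-5 and NT-6, from Adeno-2, 29 of the 31 genes were lower than in Adeno-2 in each subclone, by medians of -1.50, -1.50 and -1.40, and the factor fell from 0.44 to -0.58, -0.58 and -0.55. Dcn was -0.76 in Adeno-2 and -1.74, -2.01 and -1.53 in its subclones. In NT-7, from iPSC-7, 20 genes were lower, and in NT-8 and NT-9, from iPSC-15, 22 and 28 were higher. The median difference over all genes was 0.21 in NT-7, 0.18 in NT-8 and 0.13 in NT-9, against 0.02 in NT-4, NT-5 and NT-6, and that of the matrix genes was -0.62, 0.58 and 0.65 in NT-7, NT-8 and NT-9. Timp1 was 4.53 in iPSC-7 and 1.08 in NT-7, and NT-7 had the highest Mmp2 of all lines at 1.77, or 2.31 above its line. The mean of 13 primitive endoderm markers ranged from -1.91 to 0.57 among the NT-ESC, against at most -1.35 in the 52 ESC and iPSC arrays, and its part in these differences was not tested.

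With the donor as a block, 1 matrix gene was called over the 3 families and 0 were higher (0.0169% and 0.0423% of all genes higher and lower, limma). Mfap5 fell by 1.55 (SE 0.13, limma adjusted p = 0.00856). It was 0.86 in Adeno-2 and -0.64, -0.65 and -0.54 in its subclones, and -0.89, -1.30 and -1.27 in NT-7, NT-8 and NT-9, all below every ESC (-0.48 to -0.20). Timp1 (-2.02, SE 0.34, adjusted p = 0.061) and Timp3 (-1.70, SE 0.28, adjusted p = 0.061) did not pass in the same limma fit. Without iPSC-7, NT-7, or any 1 of NT-4, NT-5 and NT-6 the count was 0, without Adeno-2 it was 12 (9 higher, 3 lower), and with the Adeno-2 family alone it was 26 (1 higher, 25 lower), with 7.91% and 9.38% of all genes called higher and lower. That last fit sets 3 sister subclones against 1 donor array, whose own spread is unknown and was taken to be that of the subclones. Against the 4 ESC, no matrix gene was called by limma (0% and 0.00847% of all genes), 3 had an unadjusted p under 0.05, and 3 were called lower when NT-7 to NT-9 were left out.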

How the data were processed

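The deposited values are log2 intensities made by the authors; the base of 2 and the centring of each array near 0 (medians -0.348 to -0.051) were inferred from the values, and no source at hand states how probes were summarised or arrays normalized. Precision is limited by the number of arrays. Of 22626 probe sets, 18003 had 1 gene in the platform annotation, 287 several and 4336 none. Each gene was read from its probe set with the highest mean (16 of the matrix genes had more than 1). Members and gene lists were chosen with earlier results of these data known. Contrasts of 14 group means over 52 arrays, alone or with the factor as a covariate, were fitted with limma 3.58.1 in R 4.3.3 (lmFit, eBayes, 2-sided moderated tests, Benjamini-Hochberg over all 11807 genes, threshold 0.05). NT-ESC were fitted apart. The scripts were tested on simulated data. Named genes outside the set were mostly those with the largest called difference in each list. Others were genes of the factor, haematopoietic markers given for their level or range, and the genes whose deviations correlated most with the mean of the matrix genes. Alternatives covered normalization, probe sets, low genes, moderation, blocks, the factor's genes and single arrays left out.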

Additional observations from a re-analysis of the deposited data

Results flagged for a closer look

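In groups of 4 to 10 arrays, 126 sets of values were checked for a sample standing apart, and 16 did; chance gives about 1 in 20. Blood-derived iPSC-11 (GMP, mouse 1) was low in the mean of the matrix genes (-0.02 against 0.35 to 0.41), Thbs2 (0.37), Postn (0.76), Tnc (3.41), Mmp2 (-1.01) and Col5a2 (2.70). iPSC-7 (HSC, mouse 1) was high in the mean (0.84 against 0.13 to 0.23), Thbs2 (1.67) and Lox (3.80). iPSC-21 (HSC, mouse 2) was low in Postn (-0.10), Tnc (2.60) and Col6a3 (-1.47). The others were Eln in ESC-4 (-0.84) and iPSC-9 (-1.55), Dcn in iPSC-46 (1.22) and Tnc in iPSC-28 (3.42).

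The difference between fibroblast and blood origin differed between the 3 animals for 17 matrix genes, by limma's moderated F test with adjustment over all genes. The adjusted p was 0.00215 for Fbln5, 0.0048 for Timp1, 0.00497 for Loxl2, 0.00804 for Col5a2, 0.00959 for Timp2, 0.0101 for Lox, 0.014 for Lum, 0.0149 for Col6a2 and 0.0156 for Dcn. It was 0.0249 for Col5a1, 0.0254 for Mfap5, 0.0273 for Timp3, 0.0328 for Mmp2, 0.0371 for Col1a1, 0.0379 for Sparc, 0.0406 for Col6a1 and 0.0491 for Serpinh1. Without the factor as a covariate, Dcn had the same direction in all 3 animals (1.69, 2.57 and 0.98). Fbln5 was -0.16 in mouse 1 against 1.78 in mouse 2 and 1.32 in chimera 2.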

How the results depend on the processing

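Leaving out 1 array in turn gave 24 to 28 called matrix genes for fibroblast against blood origin. It gave 24 to 28 for mouse 2, 22 for chimera 2, 26 or 27 for the slopes and 23 or 24 for fibroblast-derived clones against ESC. The counts that moved by more than 1.5 times from those with all arrays follow. They were 0 to 4 for mouse 1, 5 to 20 for the difference between animals, 0 to 1 for MEF-derived clones against ESC, 2 to 11 for blood-derived clones against ESC, and 0 to 12 for NT-ESC against donors. With the factor as a covariate the ranges were 3 to 14 (fibroblast against blood origin), 0 to 5 (MEF-derived against ESC) and 6 to 20 (fibroblast-derived against ESC). Without mouse 2, 18 genes differed by origin. Leaving out genes with a mean under 0 gave 0 in mouse 1 and 0 for MEF-derived clones against ESC. The latter comparison also gave 0 with its 10 arrays alone, with the replicate block and with the animal as a random block, which gave 1 for blood-derived clones against ESC. Without both iPSC-32 and ESC-1 the counts were 0 (MEF-derived against ESC, with and without the covariate), 12 (blood-derived against ESC), 16 (origin, with the covariate) and 20 (fibroblast-derived against ESC, with the covariate). With the covariate as the mean of the other matrix genes, they were 1 for MEF-derived and 14 for fibroblast-derived clones against ESC, and Col5a1 between chimera 2 and mouse 2 reversed to 0.01 (adjusted p = 0.911, limma). The difference between animals was called in 11 genes with the factor as covariate. NT-ESC against donors gave 0 without the donor block and 26 for the Adeno-2 family alone (1 donor array), and NT-ESC against ESC gave 3 when NT-7 to NT-9 were left out. With a threshold of 1 in place of 0.5, 2 values were off their lines. Causes were not tested. The comparison of chimera 2 with mouse 2, the covariate in the F test and leaving out iPSC-32 with ESC-1 were chosen after seeing the data.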
